A study of Mus musculus with 2 samples.

Results

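The polypyrimidine tract-binding (PTB) paralogs Ptbp1, Ptbp2 and Ptbp3 and 5 partner or related RNA-binding protein genes (Raver1, Raver2, Matr3, Hnrnpl and Hnrnpll) were followed across retinal cell types with and without Ptbp1. These 8 genes were listed by name, and 7 of them had a row among the 25778 genes of the count table. Raver1 was not analysed here. The data were single-cell RNA-seq of dissociated retina from mice 30 days old, with 1 mouse and 1 library per genotype. Ptbp1-Ctrl retina carried Chx10-Cre alone, with the wild-type Ptbp1 locus according to the study's methods, and Ptbp1-KO retina was Chx10-Cre;Ptbp1lox/lox. Both libraries therefore carry the Cre transgene, which is active in retinal progenitors. In Ptbp1-KO it removes the floxed segment, the promoter and first exon of Ptbp1, from progenitors and hence from the neurons and MG (Müller glia) they give rise to, whereas retinal cells of other origin keep it. The tables held 16421 cells and 32758836 unique molecular identifiers (UMIs, 1 per captured RNA molecule) of Ptbp1-Ctrl, and 14522 cells and 35328593 UMIs of Ptbp1-KO.

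PTB proteins bind pyrimidine-rich RNA and mostly hold back the use of nearby exons. Ptbp1 is the form of progenitors, glia and most non-neuronal tissues, Ptbp2 is the form of developing neurons, and Ptbp3 is best known from blood cells. The paralogs are wired to one another, since PTB proteins cause a short exon of Ptbp1 and Ptbp2 transcripts to be left out, and the shortened transcripts are degraded by nonsense-mediated decay. A gain of Ptbp2 after loss of Ptbp1 is thus a known form of compensation in cultured cells. Raver1 and Raver2 are adaptor proteins that bind PTB, Matr3 (matrin 3) is a nuclear matrix protein that also binds PTB, and Hnrnpl and Hnrnpll are related splicing regulators that bind CA-rich RNA.

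The exon that carries this cross-regulation is shown because it is the part of the transcripts on which the paralogs act. In GENCODE vM21 (GRCm38) it is coding exon 10 of 14 in a full-length transcript of each paralog and is 34 bases long. The Ptbp1 copy lies at chr10:79862014-79862047 on the plus strand, the Ptbp2 copy at chr3:119724612-119724645 on the minus strand and the Ptbp3 copy at chr4:59485339-59485372 on the minus strand. Each is printed 5′ to 3′ as RNA-sense DNA, with the bases that are identical in all 3 paralogs in capitals.
Ptbp1 exon: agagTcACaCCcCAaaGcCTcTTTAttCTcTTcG
Ptbp2 exon: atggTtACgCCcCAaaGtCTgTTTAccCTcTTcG
Ptbp3 exon: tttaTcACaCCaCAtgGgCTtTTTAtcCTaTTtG
Of the 34 bases, 26 were identical between Ptbp1 and Ptbp2, 22 between Ptbp1 and Ptbp3, 21 between Ptbp2 and Ptbp3, and 19 in all 3. The annotation lists 2 transcripts of Ptbp1 and 2 of Ptbp2 that join the neighbouring exons without this exon, all classed as nonsense-mediated decay, and 0 such transcripts of Ptbp3. The libraries were made from the 3′ end of transcripts and counted per gene, so inclusion of the exon was not measured and every value below is a gene level.

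The segment just before the Ptbp1 start site is shown because the floxed allele removes the promoter. It spans chr10:79854182-79854431 (RefSeq, GRCm38.p6, plus strand), with matches to 3 motifs in capitals, and lies within the gene of the long noncoding RNA E130317F20Rik on the opposite strand.
Ptbp1 promoter: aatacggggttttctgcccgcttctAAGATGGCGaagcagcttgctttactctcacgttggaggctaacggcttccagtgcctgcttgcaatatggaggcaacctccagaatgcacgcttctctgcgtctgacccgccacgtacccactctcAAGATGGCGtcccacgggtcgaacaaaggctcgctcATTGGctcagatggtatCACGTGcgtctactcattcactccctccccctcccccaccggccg
Searched on both strands, AAGATGGCG was found 2 times, CACGTG and ATTGG 1 time each, without overlap, whereas GGGCGG and TATAAA were not found. Among the same 250-base windows of 32851 RefSeq promoters, 0.606% held AAGATGGCG, 6.02% held CACGTG, 33.8% held ATTGG, 32.7% held GGGCGG and 12.4% held TATAAA. These matches describe the letters of the window and no factor's binding was measured.

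Levels were taken as UMIs summed over the cells of 1 library and 1 deposited cell type, per 1000000 UMIs of that type (CPM). The types were Müller glia (MG), rods, cones, bipolar cells (BC) and amacrine cells (AC), with ganglion cells (RGC) and horizontal cells (HC) described by level only, because each held fewer than 1000000 UMIs per library. MG held 1720 cells of Ptbp1-Ctrl and 1184 of Ptbp1-KO, with median depths of 3333 and 4178 UMIs, and rods held 10058 and 9301 cells with medians of 1088 and 1288. All marker genes of a fixed list were highest in their own type except 1 of 6 for AC. The libraries shared 63 barcode sequences, which were kept, and both contained Y-linked transcripts although the study's methods describe female mice. With 1 library per genotype, no test between genotypes is possible and none was run, and all intervals (95%) cover counting error only. A difference was called past the fold when the log2 ratio of Ptbp1-KO to Ptbp1-Ctrl CPM was at least 0.5 in size, among genes with at least 50 UMIs over both libraries in that type. Summed levels do not tell fewer transcripts per cell from fewer cells with the transcript, so shares of cells are given where this matters.

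Ptbp1, on chromosome 10 from 79854427 to 79864771, was nearly gone from MG, rods, cones, BC and AC of Ptbp1-KO retina. Its 825 UMIs in Ptbp1-Ctrl, spread over 783 cells, stood against 14 UMIs in 11 cells of Ptbp1-KO (25.2 and 0.396 CPM, log2 ratio −5.99). In MG there were 294 UMIs of Ptbp1-Ctrl (49.8 CPM, 44.3 to 55.8) and 6 of Ptbp1-KO (1.18 CPM, 0.433 to 2.57). Rods went from 255 to 4 UMIs (19.6 and 0.276 CPM), BC from 204 to 1 (20.8 and 0.0977 CPM), AC from 41 to 2 (21.0 and 0.518 CPM) and cones from 24 to 1 (13.8 and 0.701 CPM). In Ptbp1-Ctrl, MG stood highest, and their interval did not overlap that of rods, cones, BC or AC. Rods, cones, BC and AC lay between 13.8 and 21.0 CPM with overlapping intervals, and were not told apart. RGC of Ptbp1-Ctrl held 5 UMIs and HC 2, against 0 in both types of Ptbp1-KO, where 3 UMIs would be 16.3 CPM in RGC and 70.0 CPM in HC, so a loss in HC or RGC was not shown at this depth.

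The neuronal Ptbp1 level of the control was set beside the glial RNA found in the same droplets. The Ptbp1 level in rods was 39.3% of that in MG, whereas the summed level of the 6 MG markers in rods was 0.884% of that in MG. How much of the neuronal Ptbp1 level came from RNA of other cells was not tested. Shares of cells with a UMI were compared at 1000 UMIs per cell, as the expectation over all random draws, leaving out shallower cells. At that depth 4.85% of MG of Ptbp1-Ctrl had a Ptbp1 UMI (3.87 to 5.996), against 1.71% of rods, 2.18% of BC, 2.12% of AC and 1.40% of cones. Without thinning these shares were 15.3%, 2.5%, 6.23%, 5.77% and 3.8%. In MG of Ptbp1-KO the share was 0.102% (0.338% without thinning).

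**Figure D1:**
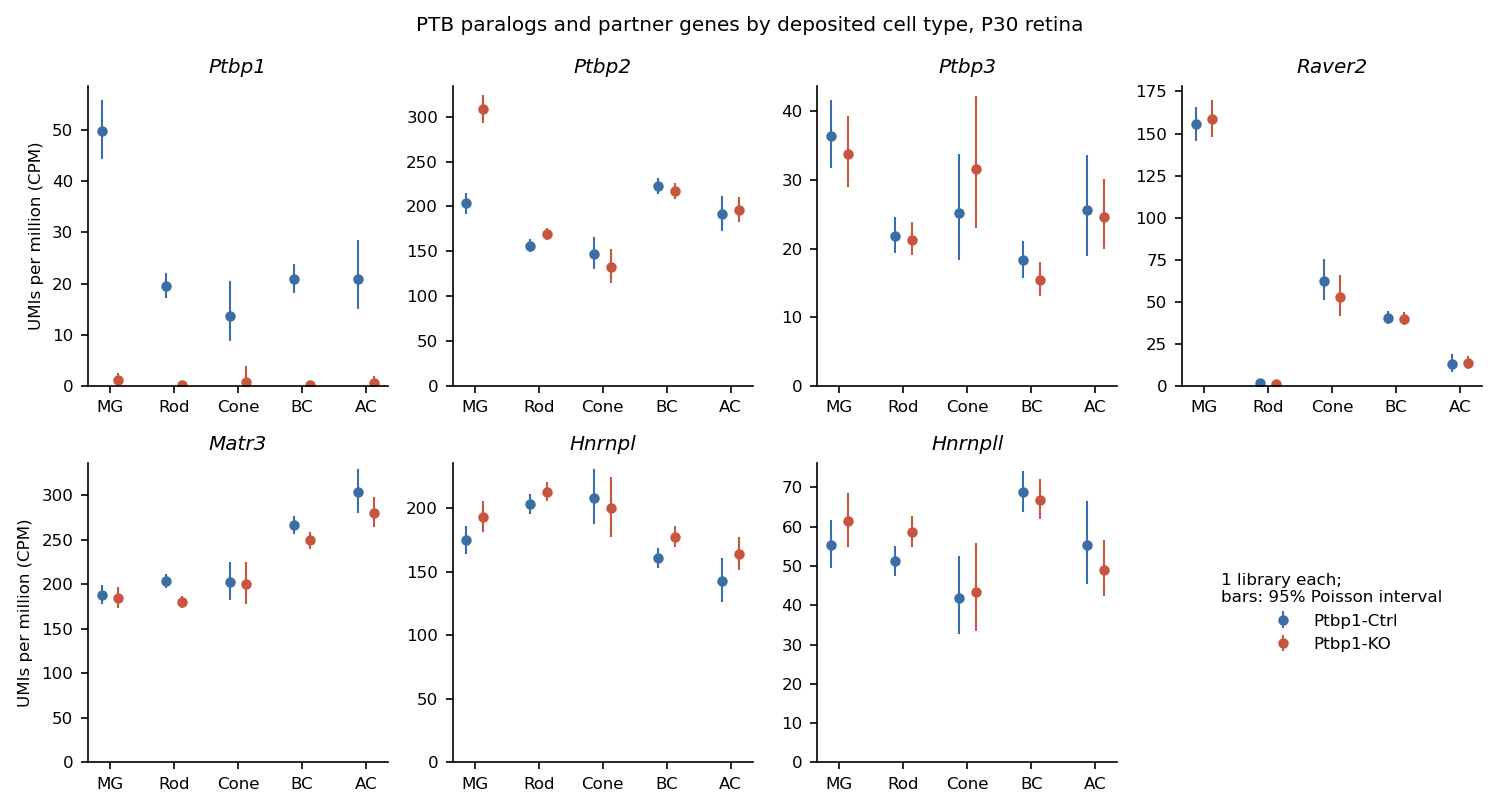
Levels of the 7 measured genes in CPM (vertical axes, each from 0) in 5 deposited cell types (horizontal axes), with 1 point per library and bars for the 95% Poisson interval. Ptbp1 of Ptbp1-KO lies near 0 in every type, Ptbp2 separates between libraries in MG (203 and 308 CPM), and Raver2 differs by type far more than by genotype.

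Ptbp2, the neuronal PTB paralog (chromosome 3, 119718742 to 119784466), was the only other gene of the 7 that lay past the fold in MG, rods, cones, BC or AC, and it did so in MG. MG of Ptbp1-Ctrl held 1201 Ptbp2 UMIs (203 CPM, 192 to 215) and MG of Ptbp1-KO held 1567 (308 CPM, 293 to 324). The intervals did not overlap, and the log2 ratio was 0.60 (0.49 to 0.71), a 1.52-fold higher level. In MG, 2 of the 7 measured genes were past the fold, Ptbp2 above and Ptbp1 below. Of all 12080 genes with enough UMIs in MG, 6.36% were past the fold on the higher side and 4.6% on the lower side, and 4.33% had a ratio at or above that of Ptbp2. The share of MG with a Ptbp2 UMI at 1000 UMIs was 18.6% in Ptbp1-Ctrl (16.8 to 20.6) and 26.4% in Ptbp1-KO (23.9 to 29.0). Without thinning, 815 of 1720 and 815 of 1184 MG had a UMI, or 47.4% and 68.8%.

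Outside MG, no Ptbp2 ratio was past the fold. The control and mutant levels of rods were 156 and 170 CPM (2037 and 2458 UMIs, log2 ratio 0.12, 0.03 to 0.20). BC had 223 and 217 CPM (2179 and 2226 UMIs, −0.03, −0.12 to 0.05), and AC had 192 and 196 CPM (375 and 756 UMIs, 0.03, −0.15 to 0.21). Cones had 147 and 133 CPM (257 and 189 UMIs, −0.15, −0.43 to 0.13). The MG interval (0.49 to 0.71) thus lay above those of all 4 neuronal types. The rod value rests on the scaling, since all genes of rods had a median log2 ratio of 0.07 and Ptbp2 came to 0.01 when the libraries were scaled by the median of ratios. The order of the types differed between the libraries. In Ptbp1-Ctrl, BC, MG and AC had overlapping neighbouring intervals and stood above rods. In Ptbp1-KO, MG stood above BC, AC, rods and cones without overlap, whereas the wide HC interval (96.0 to 399 CPM) overlapped that of MG. RGC had 127 and 98.0 CPM on 27 and 18 UMIs and HC 108 and 210 CPM on 12 and 9 UMIs, with overlapping intervals.

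Within MG, Ptbp2 was higher in Ptbp1-KO in each cluster, with most UMIs in the main one. Cluster 4 (1386 cells of Ptbp1-Ctrl and 994 of Ptbp1-KO) had 200 and 314 CPM on 1002 and 1402 UMIs (log2 ratio 0.65, 0.53 to 0.77). Cluster 16, with 245 and 136 cells, had 237 and 262 CPM on 88 and 66 UMIs (0.14, −0.34 to 0.62). Cluster 22, with 89 and 54 cells, had 212 and 265 CPM on 111 and 99 UMIs (0.32, −0.08 to 0.73). The interval excluded 0 in cluster 4 alone, the intervals of the 3 clusters overlapped, and a difference between clusters was not tested. Cluster 16 was shallow (medians of 1314 and 1715 UMIs) and held the most rod transcripts, with 5 rod markers summing to 9266 and 5648 CPM against 4345 and 3526 in cluster 4. Cluster 22 was deep (6076 and 7127 UMIs) and held 3197 and 3949 CPM of the 7 BC markers against 596 and 678 in cluster 4. The part of these other transcripts in the Ptbp2 values was not tested. Over all MG, the summed levels of the marker lists of other cells were 4531 and 3508 CPM for rods, 844 and 929 for BC, 558 and 644 for AC, 34.03 and 40.1 for microglia, 8.97 and 14.2 for astrocytes and 58.1 and 60.95 for pericytes. Of 3 endothelial markers summing to 879 and 815 CPM, a single one carried 876 in Ptbp1-Ctrl.

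In BC and AC, the clusters did not share a direction for Ptbp2. Among the 10 BC clusters the log2 ratio ran from −0.30 in cluster 12 (236 and 192 CPM, −0.57 to −0.02) to 0.33 in cluster 13 (189 and 237 CPM, 0.02 to 0.64). The mutant level was above the control level in 5 clusters and below it in 5, with 1 interval above 0 and 1 below 0. The 3 AC clusters lay between −0.00 and 0.11, with every interval spanning 0. Ptbp1 was present in each of these 16 clusters in Ptbp1-Ctrl, from 16.4 to 51.5 CPM, and its interval lay below 0 in all of them.

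**Figure D2:**
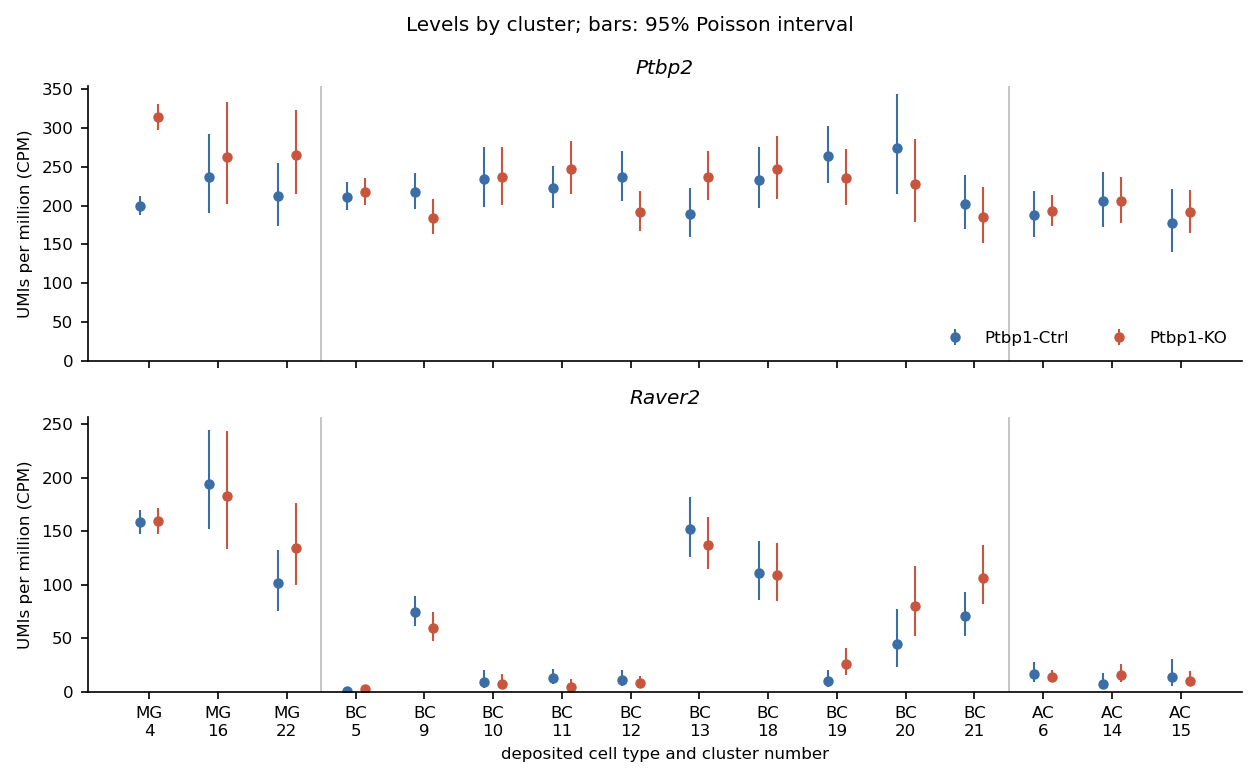
Ptbp2 and Raver2 in CPM (vertical axes from 0) for the 16 deposited clusters of MG, BC and AC (horizontal axis), 1 point per library with the 95% Poisson interval. Ptbp2 separates by library in MG cluster 4 (200 and 314 CPM), and Raver2 ranges from 0.813 to 152 CPM across BC clusters of Ptbp1-Ctrl.

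Ptbp3, the third paralog (chromosome 4, 59471868 to 59549364), was not higher in MG of Ptbp1-KO taken as a whole. The MG levels were 36.4 and 33.8 CPM (215 and 172 UMIs, log2 ratio −0.11, −0.40 to 0.19). Rods had 21.9 and 21.3 CPM (285 and 309 UMIs, −0.04, −0.27 to 0.20) and AC 25.6 and 24.6 CPM (50 and 95 UMIs, −0.05, −0.56 to 0.47). BC had 18.3 and 15.4 CPM (179 and 158 UMIs, −0.24, −0.56 to 0.07), with 8 of 10 clusters lower and every cluster interval spanning 0. Cones had 25.2 and 31.6 CPM on 44 and 45 UMIs (0.32, −0.31 to 0.96). The MG interval, which covers counting error only, lay below the Ptbp2 ratio of 0.60. Of the 3 MG clusters, 1 was higher and 2 were lower in Ptbp1-KO, with every interval spanning 0. Cluster 22 was the higher, with 22.9 and 45.5 CPM on 12 and 17 UMIs (0.99, −0.16 to 2.19). HC had 63.2 and 93.3 CPM, the highest of the types, on 7 and 4 UMIs, and the interval overlapped that of MG.

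The summed level of the 3 paralogs, which includes the deleted Ptbp1, was higher in MG and lower in BC of Ptbp1-KO, by less than the fold. In MG, Ptbp1 made up 17.2% of the paralog UMIs of Ptbp1-Ctrl and Ptbp2 70.2%, whereas in Ptbp1-KO Ptbp2 made up 89.8%. The MG sum was 290 CPM in Ptbp1-Ctrl (276 to 304) and 343 CPM in Ptbp1-KO (327 to 360), with a log2 ratio of 0.24 (0.15 to 0.34). The Ptbp2 difference of 105 CPM in MG was larger than the 48.6 CPM by which Ptbp1 was lower. In BC the sum was lower in Ptbp1-KO, with 262 and 233 CPM (−0.17, −0.25 to −0.09), and neither Ptbp2 nor Ptbp3 was higher there. Rods had 198 and 191 CPM (−0.05, −0.13 to 0.03), cones 186 and 165 CPM (−0.18, −0.42 to 0.07) and AC 238 and 221 CPM (−0.11, −0.27 to 0.06). Ptbp1 was 9.90% of the sum in rods of Ptbp1-Ctrl, 7.38% in cones, 7.96% in BC and 8.80% in AC. These sums were not divided by transcript or gene length. Whether the paralogs are captured equally well was not tested, so the shares describe UMIs and not transcripts per cell.

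**Figure D3:**
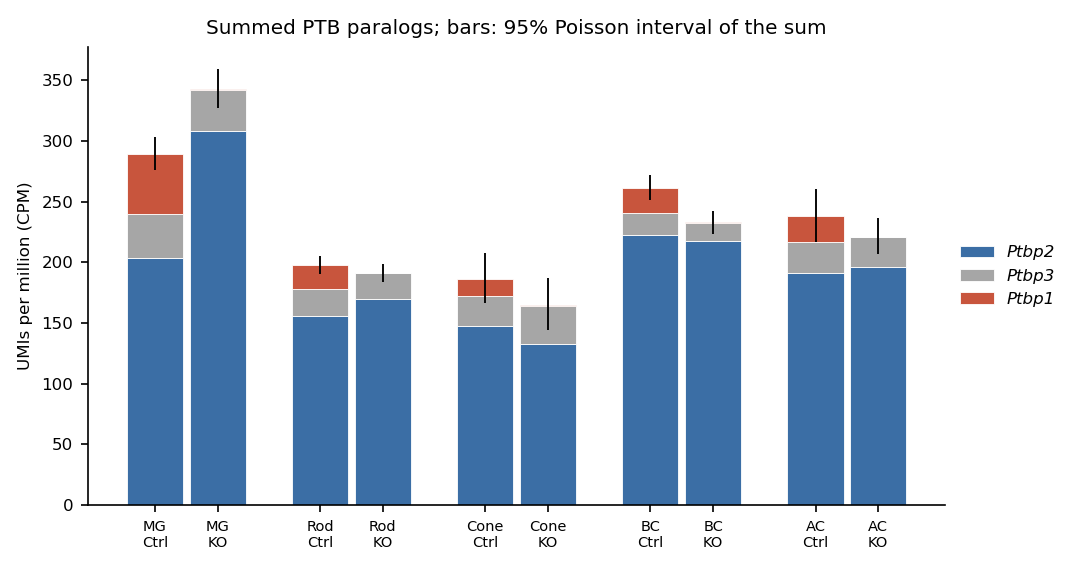
Stacked bars of Ptbp2, Ptbp3 and Ptbp1 in CPM (vertical axis from 0) for each cell type and library (horizontal axis), with the 95% Poisson interval of the sum. The MG sum is higher in Ptbp1-KO (343 against 290 CPM), and the BC sum is lower (233 against 262 CPM).

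Raver2 (chromosome 4, 101068983 to 101152370), an adaptor that binds PTB proteins and can add to their repression, differed between MG, cones, BC and rods far more than between genotypes. The MG levels were 156 and 158 CPM (919 and 806 UMIs, log2 ratio 0.03, −0.11 to 0.16). Cones had 62.5 and 52.6 CPM (109 and 75 UMIs, −0.25, −0.69 to 0.19), BC 40.6 and 39.9 CPM (397 and 409 UMIs, −0.02, −0.22 to 0.18) and AC 12.8 and 13.5 CPM (25 and 52 UMIs, 0.08, −0.64 to 0.83). The AC ratio became 1.81 after subtraction of background RNA, so it is not settled by these data. Rods had 25 and 20 UMIs (1.92 and 1.38 CPM), too few for the ratio, and HC had 0 in both libraries. In Ptbp1-Ctrl each step from MG to cones, to BC and to AC was wider than the intervals, so these 4 types were told apart. A Raver2 UMI was found at that thinned depth in 14.2% of control MG and 14.8% of mutant MG, against 0.178% and 0.157% of rods. Over the whole library the levels were 45.1 and 38.6 CPM, with 1720 and 1184 MG among the cells, and the part of the MG number in this was not tested.

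Among BC, Raver2 marked some clusters and not others. In Ptbp1-Ctrl it stood at 152 CPM in cluster 13, 111 in cluster 18, 74.6 in cluster 9, 70.3 in cluster 21 and 44.4 in cluster 20. The other 5 BC clusters lay at 0.813 CPM in cluster 5 and from 9.45 to 12.8 CPM elsewhere. The same 5 clusters were highest in Ptbp1-KO, from 59.9 to 137 CPM. Cluster 13 thus reached the MG level (158 CPM in MG cluster 4) although it is a neuronal cluster. Between genotypes, 2 of 10 intervals lay above 0, cluster 21 with 70.3 and 107 CPM (47 and 61 UMIs, log2 ratio 0.60, 0.03 to 1.18) and cluster 19 with 10.2 and 26.3 CPM (8 and 19 UMIs, 1.36, 0.10 to 2.76), and none lay below 0.

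Matr3, a nuclear matrix RNA-binding protein that binds PTB (chromosome 18, 35562138 to 35593835), was level in MG and cones and lower in rods and BC, by less than the fold. MG had 188 and 185 CPM (1112 and 939 UMIs, log2 ratio −0.03, −0.16 to 0.10) and cones 203 and 201 CPM (354 and 286 UMIs, −0.02, −0.25 to 0.21). Rods had 204 and 180 CPM (2658 and 2607 UMIs, −0.18, −0.26 to −0.10), BC 267 and 249 CPM (2609 and 2553 UMIs, −0.10, −0.18 to −0.02) and AC 304 and 280 CPM (594 and 1082 UMIs, −0.11, −0.26 to 0.03). Of all genes, 12.2% in rods and 28.6% in BC had a ratio at or below that of Matr3. At 1000 UMIs per cell, 19% of control rods (18.01 to 20.02) and 15.9% of mutant rods (14.98 to 16.8) had a Matr3 UMI, whereas without thinning the shares were 21.2% and 22.2%. Matr3 was lower in 9 of 10 BC clusters and in 3 of 3 AC clusters. Only BC cluster 20 had an interval below 0, with 222 and 111 CPM on 60 and 36 UMIs (−1.01, −1.64 to −0.39). RGC had 272 and 163 CPM on 58 and 30 UMIs. In Ptbp1-Ctrl the gene was highest in AC, RGC and BC, whose neighbouring intervals overlapped, and the step down from BC to rods was wider than the intervals.

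Hnrnpl (chromosome 7, 28808541 to 28822266), an essential regulator of alternative splicing, differed the other way. It was higher in Ptbp1-KO in MG, with 175 and 193 CPM (1031 and 981 UMIs, log2 ratio 0.14, 0.02 to 0.27), and in BC, with 160 and 177 CPM (1570 and 1815 UMIs, 0.14, 0.05 to 0.24). AC had 143 and 164 CPM (279 and 632 UMIs, 0.20, −0.01 to 0.41), rods 203 and 213 CPM (2651 and 3081 UMIs, 0.06, −0.01 to 0.14) and cones 208 and 200 CPM (363 and 285 UMIs, −0.06, −0.29 to 0.17). It was higher in 9 of 10 BC clusters, although cluster 9 was level at 158 CPM in both libraries, and in 3 of 3 AC clusters. The interval lay above 0 in BC clusters 12 and 20 and in MG cluster 4 (174 and 195 CPM). The differences of the whole types are below the fold, whereas BC cluster 20 was past it on 28 and 59 UMIs (104 and 181 CPM, 0.81, 0.13 to 1.51). Of all genes, 28.9% in MG and 26.3% in BC had a ratio at or above that of Hnrnpl. In rods the sign of Hnrnpl turned with scaling (−0.03 with TMM, −0.05 with the median of ratios).

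Hnrnpll (chromosome 17, 80029487 to 80062334), a paralog of Hnrnpl known from lymphocyte splicing, was higher in rods of Ptbp1-KO, with 51.2 and 58.6 CPM (667 and 850 UMIs, log2 ratio 0.20, 0.05 to 0.35). Scaled by TMM or the median of ratios, this ratio was 0.10 or 0.08. In rods 30.7% of genes had a ratio at or above this one. MG had 55.4 and 61.3 CPM (327 and 312 UMIs, 0.15, −0.08 to 0.38), BC 68.9 and 66.8 CPM (674 and 684 UMIs, −0.04, −0.20 to 0.11), AC 55.2 and 49.0 CPM (108 and 189 UMIs, −0.17, −0.52 to 0.18) and cones 41.8 and 43.5 CPM (73 and 62 UMIs, 0.06, −0.46 to 0.56). No cluster of MG, BC or AC had an interval that excluded 0. BC stood highest in Ptbp1-Ctrl, above MG, rods and cones without overlap, whereas the intervals of AC, HC and RGC overlapped that of BC.

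**Figure D4:**
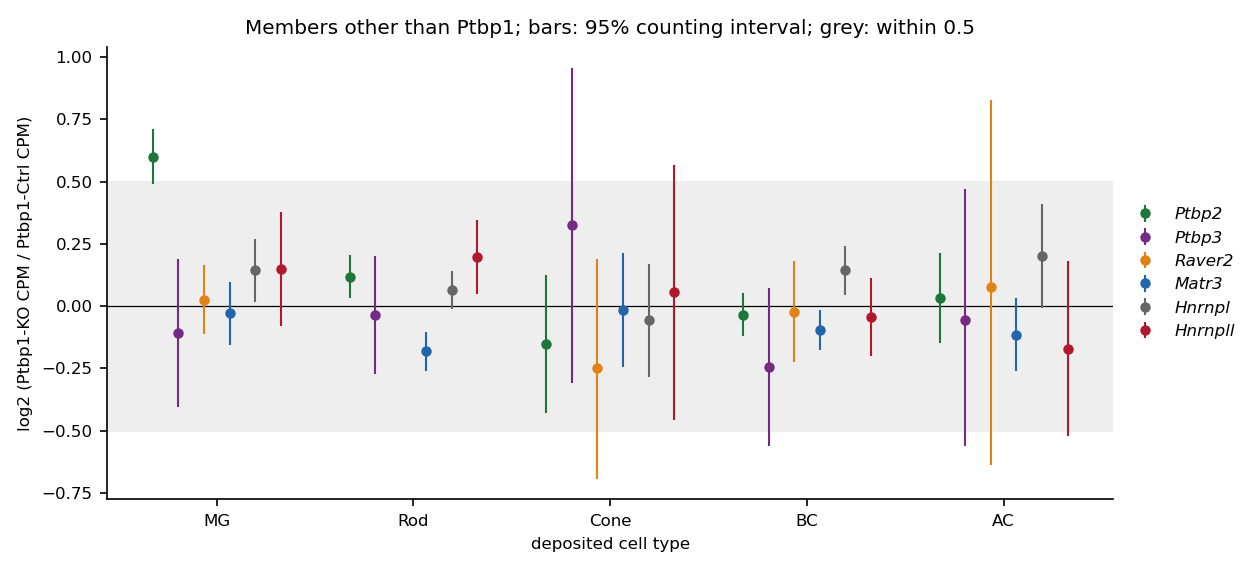
Log2 ratio of Ptbp1-KO to Ptbp1-Ctrl CPM (vertical axis) of the 6 measured genes other than Ptbp1 in 5 cell types (horizontal axis), with 95% counting intervals. Genes under 50 UMIs are left out, and the grey band holds ratios within 0.5 of 0. Only Ptbp2 in MG, at 0.60, lies outside the band.

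Counted together, the 6 measured genes other than Ptbp1 gave 1 call past the fold in MG and 0 in each of rods, cones, BC and AC. Raver2 in rods had too few UMIs to be called, as had Ptbp1 in cones (25 UMIs) and AC (43 UMIs). In rods, 11.5% of 12742 genes were past the fold on the higher side and 1.88% on the lower side. In cones these shares were 6.51% and 4.96% of 7968 genes, in BC 4.99% and 3.0% of 13070 genes and in AC 5.5% and 4.36% of 10796 genes. The median log2 ratio of the genes other than Ptbp1 was 0.09 in MG, 0.06 in rods, −0.04 in cones, −0.04 in BC and −0.01 in AC. The medians over all genes were −0.00 in MG, 0.07 in rods, −0.01 in cones, 0.01 in BC and −0.00 in AC. Single genes of the group lay on both sides of 0, from −0.11 to 0.60 in MG and from −0.25 to 0.32 in cones. The group was not tested against all genes.

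**Figure D5:**
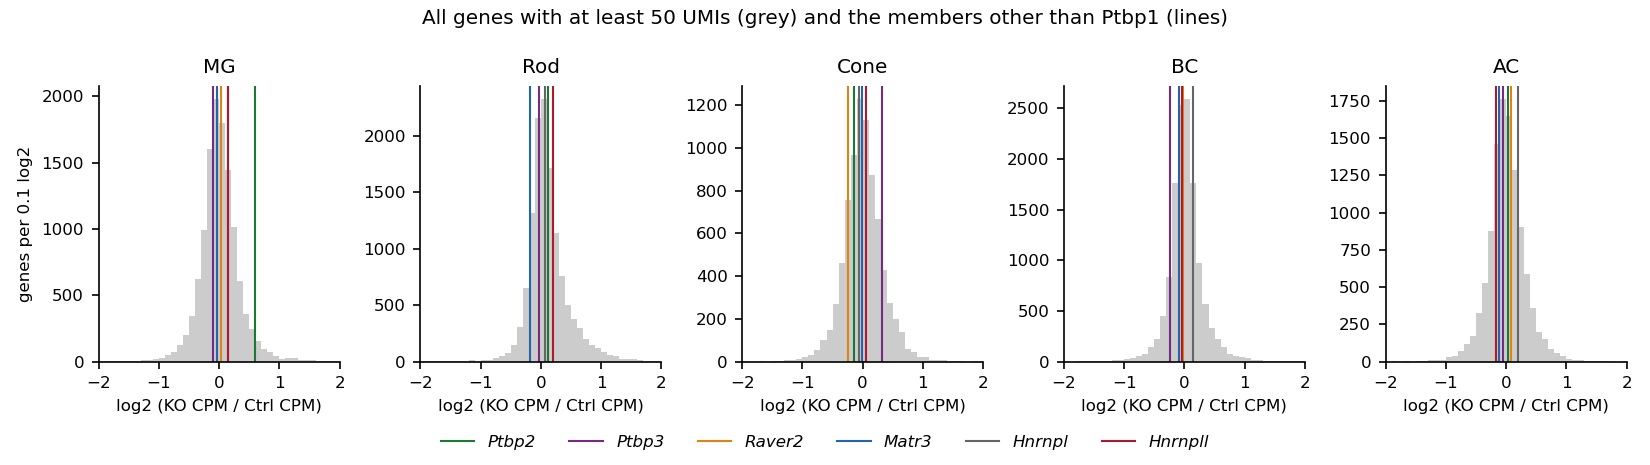
Number of genes per 0.1 of log2 ratio of Ptbp1-KO to Ptbp1-Ctrl CPM (grey, genes with at least 50 UMIs), by cell type, with a line for each measured gene other than Ptbp1. Ptbp2 in MG, at 0.60, has 4.33% of 12080 genes at or above it, and the other lines stand within the bulk of the genes.

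Of 20 further RNA-binding proteins that bind pyrimidine-rich RNA or associate with PTB, such as the U2AF subunits and Sfpq, 20 had enough UMIs in each of the 5 types and 0 were past the fold in any. Their medians ran from −0.07 in MG to 0.01 in AC. Of 14 nonsense-mediated decay factors, on which the cross-regulation of the paralogs depends, 0 were past the fold in rods and BC. Smg9, a regulator of the Smg1 kinase of that pathway, was past the fold on the lower side in MG, with 17.9 and 11.99 CPM (106 and 61 UMIs, log2 ratio −0.58, −1.06 to −0.11), and in cones, with 38 and 21 UMIs (−0.56, −1.41 to 0.24). Smg8, its partner, was past it in AC on 25 and 27 UMIs (12.8 and 6.999 CPM, −0.87, −1.71 to −0.02). MG and AC thus had 1 of 14 factors and cones 1 of 13 past the fold on the lower side, against 4.6%, 4.36% and 4.96% of all genes, a number near this background. The list of 7 genes around miR-124, which lowers Ptbp1, and the repressor Rest had 0 past the fold in MG, rods, cones and BC, of 7, 6, 4 and 7 with enough UMIs. In AC it had 1 of 6, Rest itself, with 16.4 and 10.6 CPM on 32 and 41 UMIs (−0.62, −1.32 to 0.09), against the same 4.36% of all genes.

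The genes whose levels followed each paralog most closely across the 21 deposited clusters of Ptbp1-Ctrl were named by their correlation in that library, so a lower value in Ptbp1-KO follows in part from the choice. For Ptbp2 they were Phf21a, Plcb4 and Pcgf5, with Pearson's r across clusters of 0.94, 0.90 and 0.89 in Ptbp1-Ctrl and 0.83, 0.81 and 0.80 in Ptbp1-KO. For Ptbp1 they were Tspo, Crip1 and Abcb9 (0.86, 0.85 and 0.84), and these values were 0.20, 0.40 and 0.17 in Ptbp1-KO, where Ptbp1 itself was near 0. For Ptbp3 they were Olfm2, Mast3 and Slc37a4 (0.77, 0.74 and 0.73, against 0.43, 0.58 and 0.59). The clusters of 1 library share its depth and free RNA, so the values describe the pattern only.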

How the data were processed

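Single-cell RNA-seq was made from 1 Ptbp1-Ctrl and 1 Ptbp1-KO retina preparation with a 10x Genomics 3′ kit. According to the methods and the submitters' processing notes, the authors aligned reads to mm10 and counted UMIs per gene and cell with Cell Ranger 7.0.1, then filtered, clustered and annotated cells with Seurat 4. The deposited counts are whole UMIs, and their sum equalled the deposited total in all 30943 cells. Cell types and clusters are the authors' own, and 3 per-cell columns were not used. Cells held 701 to 9998 UMIs and up to 19.9% mitochondrial UMIs, a percent column computed and deposited by the authors. A doublet caller (Scrublet in scanpy 1.11.5) marked 0 cells at its own threshold and so had not worked, and only its ranking was used.

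Counts were summed by library and type, or cluster with at least 100000 UMIs per library (16 of 16), and divided by total UMIs (CPM). Intervals were exact Poisson for levels, exact conditional binomial for ratios and Clopper-Pearson for shares, all covering counting error only. Ratio code was tested on simulated data. The members and lists were chosen with earlier results of these data known. Genes named were all members, list members past the fold, and the 3 genes most correlated with each paralog over log2(CPM + 10), among 11481 genes with at least 200 UMIs. Alternatives were scaling by TMM (edgeR 4.0.16) or the median of ratios, thinning to 1000 UMIs per cell, leaving out the 5% of cells with the highest doublet scores, subtracting background RNA, other minimum counts (1 or 200 UMIs) and a fold of 0.3. Positions are from GENCODE vM21 and promoters from RefSeq, where 5 of the 8 members matched (Ptbp1, Ptbp2, Raver1, Raver2 and Hnrnpl).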

Additional observations from a re-analysis of the deposited data

Results flagged for a closer look

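Genes that overlap Ptbp1 in the annotation were looked at after the annotation and their values had been seen. The sources name Cell Ranger as the counting pipeline and give no strand setting. Whether reads of a gene were counted for its antisense partner was not tested. E130317F20Rik, a long noncoding RNA on the opposite strand whose gene spans the Ptbp1 promoter and start site (chromosome 10, 79851381 to 79854971), had 54 UMIs in rods of Ptbp1-Ctrl and 3 in rods of Ptbp1-KO (log2 ratio −4.32, −6.64 to −2.70). In cones it had 8 and 0 UMIs, with an upper interval limit of −0.48 for the log2 ratio. In AC it had 4 and 0 UMIs, with an upper limit of −0.38, so both rest on few UMIs. In MG and BC it was not lower, with 15 and 18 UMIs and 28 and 38 UMIs. Plppr3, whose gene overlaps the 3′ end of Ptbp1 on the opposite strand (79860475 to 79874634), had 17 UMIs in MG of Ptbp1-Ctrl and 70 in MG of Ptbp1-KO (log2 ratio 2.26, 1.48 to 3.12). AC had 25 and 72 UMIs of it (0.55, −0.13 to 1.27) and rods 8 and 7. Both values come from outside the listed genes, and the difference between cell types was not tested.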

How the results depend on the processing

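Of 181 ratios of the 7 measured genes recomputed under the alternatives, 173 stayed inside the reported counting interval, 8 lay outside it and 0 turned the sign of a ratio past the fold. Ptbp2 in MG ran from 0.56 (thinned to 1000 UMIs) to 0.69 (background subtraction), and was 0.65 in MG of cluster 4 alone, an alternative chosen after seeing the data. The scaling matters in rods, where TMM and the median of ratios shift all log2 ratios down by 0.09 and 0.11. There the median of the genes other than Ptbp1 became −0.030 and −0.049, and the summed paralogs became −0.14 and −0.16. Matr3 in rods reached −0.30 after thinning. In cones 1 gene in place of 0 was past the fold with no minimum of UMIs (Ptbp1) and with a fold of 0.3 (Ptbp3), and in AC 1 with no minimum (Ptbp1). Raver2 in AC came to 1.81 after background subtraction, where 25.5% and 22.9% of UMIs were taken as background. No paired analysis was possible because each genotype has 1 library and no test was run, and for the same reason no library could be left out. Depth limits RGC and HC, and Ptbp1 in cones and AC.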
